A study of Mus musculus with 16 samples.

Results

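Transcripts of 10 autophagy and lysosome genes were followed in the left ventricle of old mice that had, or had not, been through repeated pregnancies. The genes are Lamp1, Lamp2, Ctsd, Ctsb, Ctsl, Sqstm1, Map1lc3b, Gabarapl1, Tfeb and Becn1. They were picked by name from the 55487 genes of the count tables, each symbol matched 1 row, and all 10 passed the filter on low counts. The study holds 16 libraries, each from a piece cut from the middle of the left ventricle, of 24-month-old C57Bl/6J mice. Of these, 8 are from mice with more than 3 past pregnancies (multiparous) and 8 from virgin mice. No group received a treatment, and no altered allele is named for any group. All hearts were flushed with cold saline before freezing, and the libraries are stranded total RNA depleted of ribosomal RNA. The library names split the multiparous hearts into 4 coded P (multiparous 1, 2, 5 and 7) and 4 coded MP (multiparous 3, 4, 6 and 8), while all virgin libraries are coded AA. The labels do not say what the codes mean. When multiparous and virgin hearts are compared, parity and whatever the codes mark cannot be told apart.

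Autophagy delivers damaged organelles and protein aggregates to the lysosome for breakdown. A cup-shaped membrane is started by lipid kinase complexes built on Beclin 1 (Becn1). It grows with the help of small ubiquitin-like proteins of the ATG8 family, such as LC3B (Map1lc3b) and GABARAPL1 (Gabarapl1), which are joined to its lipids. The adaptor p62 (Sqstm1) binds both ubiquitinated cargo and LC3 and is itself degraded with the cargo. The closed vesicle fuses with the lysosome, whose membrane is rich in LAMP1 and LAMP2 and whose lumen holds the cathepsins D, B and L (Ctsd, Ctsb and Ctsl). The transcription factor TFEB (Tfeb) binds E-box-like sites in promoters of many of these genes when nutrients are scarce or lysosomes are stressed. Heart muscle cells are rarely replaced and rely on this route for the turnover of mitochondria, and loss of LAMP2 causes a cardiomyopathy in humans. Transcript levels do not measure autophagic flux, the rate at which material passes through the route.

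The promoter sequences that follow are shown because TFEB sites are built around the letters CACGTG, an E-box core. Windows of RefSeq (GRCm38.p6), from 250 bases before to 50 bases after the start site, were found for 8 of the 10 genes, all but Ctsb and Becn1. Tfeb had 3 windows, and each of the other genes had 1. The core was found in 3 of these 8 genes (37.5%), against 2187 of 27025 genes in all (8.09%) and 36 of 147 other genes of the autophagy and lysosome lists described below (24.5%). Each sequence is given 5′ to 3′ on the gene's own strand, with the core in capitals. Lamp1 holds 4 cores within 72 bases, at chr8:13159089-13159160 on the plus strand, ending at the base before the start site. Ctsd holds 2 cores, and the nearer is shown, at chr7:142387908-142387937 on the minus strand. The single core of Ctsl lies at the far end of its window, at chr13:64370739-64370768 on the minus strand.
Lamp1: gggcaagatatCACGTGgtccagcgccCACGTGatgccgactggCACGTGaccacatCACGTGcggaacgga
Ctsd: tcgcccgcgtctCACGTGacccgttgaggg
Ctsl: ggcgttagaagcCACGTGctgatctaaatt
Counted from the RefSeq start site, the cores begin at -61, -45, -28 and -15 in Lamp1, at -245 and -98 in Ctsd, and at -236 in Ctsl. The GENCODE gene spans given below begin further upstream for Ctsd and Ctsl, at 142388038 and 64370890. The stretches printed for Ctsd and Ctsl therefore lie inside those spans. The longer TFEB consensus, known as the CLEAR motif, is the core CACGTG with GT before it and AC after it, so the searches overlap. It was in no window of the 8 genes, against 4 of 147 other listed genes (2.72%) and 100 of 27025 genes (0.37%). The core at -28 in Lamp1 and the core at -98 in Ctsd come closest, with 9 of its 10 letters. The FoxO motif GTAAACA, searched on both strands, was in no window of the 8 genes, in 2 of 147 other listed genes (1.36%) and in 1095 of 27025 genes (4.05%). These matches describe letters, not bound sites.

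Gene counts per library were 34560606 to 58890976 in 15 libraries and 228325238 in virgin 8. Levels are given as CPM, a gene's counts per 1000000 gene counts, after scaling by trimmed means of M-values (TMM). Summed cardiomyocyte markers reached 41916 to 55810 CPM and no marker of any cell type examined was at 0 in every library. Fibroblast markers summed to 1271 to 1938 CPM in multiparous and 1177 to 1648 CPM in virgin hearts, with 5 of 6 genes higher (exact two-sided permutation p = 0.0121, 0.0485 adjusted over 8 lists). Kidney tubule markers summed to 10.4 to 35.6 CPM in multiparous and 20.9 to 122 CPM in virgin hearts, with 0 of 13 genes higher (exact two-sided permutation p = 0.00171, adjusted 0.0137). Macrophage markers, whose cells are rich in lysosomes, summed to 356 to 647 and 346 to 654 CPM, with 12 of 15 genes higher (exact two-sided permutation p = 0.422, adjusted 0.509). Of the cardiomyocyte markers 0 of 7 were higher in multiparous hearts (exact two-sided permutation p = 0.445, adjusted 0.509). Atrial cardiomyocyte markers, with 1 of 4 genes higher, had a summed log2 difference of 0.80 (exact two-sided permutation p = 0.0266, adjusted 0.0709). In this bulk tissue, fewer cells of a type and less RNA per cell cannot be told apart.

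The 10 genes together made up 0.232% to 0.27% of all gene counts in each library. Levels were compared between genes per kilobase of exon, as mean ± SD over the 16 libraries. Ctsd, the aspartic protease of the lysosome, was the most abundant of the 10 at 311 ± 20.8 CPM per kilobase, higher than 99.5% of the 17790 tested genes with a length. Lamp1 followed at 158 ± 6.43 CPM per kilobase, and its range lay below that of Ctsd and above that of every other gene of the 10. Sqstm1 measured 91.7 ± 7.74 and Ctsb 78.1 ± 3.83 CPM per kilobase. Their ranges overlapped, although Sqstm1 was above Ctsb in 15 of 16 libraries. Gabarapl1 stood alone below them at 46.1 ± 4.30 CPM per kilobase.
Map1lc3b at 20.9 ± 1.35, Lamp2 at 19.7 ± 1.07 and Ctsl at 18.05 ± 1.88 CPM per kilobase overlapped each other. Map1lc3b was above Lamp2 in 11 of 16 libraries, and Lamp2 above Ctsl in 13 of 16. The 2 regulators were lowest, Becn1 at 5.24 ± 0.256 and Tfeb at 4.99 ± 0.428 CPM per kilobase. They overlapped, with Becn1 above Tfeb in 12 of 16, and both exceeded the median tested gene, 2.30 CPM per kilobase.
Spread did not follow level: the coefficient of variation of CPM over the 16 libraries ran from 4.06% for Lamp1, 4.90% for Becn1 and 4.91% for Ctsb to 9.34% for Gabarapl1 and 10.4% for Ctsl. For comparison, the median was 7.11% among the tenth of genes with the highest levels, which holds 8 of the 10.

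Multiparous and virgin hearts held closely similar amounts of all 10 transcripts. In the comparison that the study was built for, 5 genes were higher and 5 lower in multiparous hearts (48.6% of all tested genes were higher), and none passed the test (edgeR's quasi-likelihood test, Benjamini-Hochberg adjusted p from 0.756 upwards). At an unadjusted p under 0.05 the count was also 0, as it was with DESeq2 and with limma voom. The background is thin, since 2 of 17813 tested genes were called (0.0112%), and 8.12% had an unadjusted p under 0.05. The intervals bound the differences: all 10 lay within 0.25 of 0 on the log2 scale, from -0.15 to 0.18, as did those of 48.9% of tested genes. The median absolute log2 fold change was 0.020 for the 10 genes and 0.066 for all genes tested. Each gene's multiparous and virgin values overlapped, as for all but 0.0337% of tested genes.

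**Figure D1:**
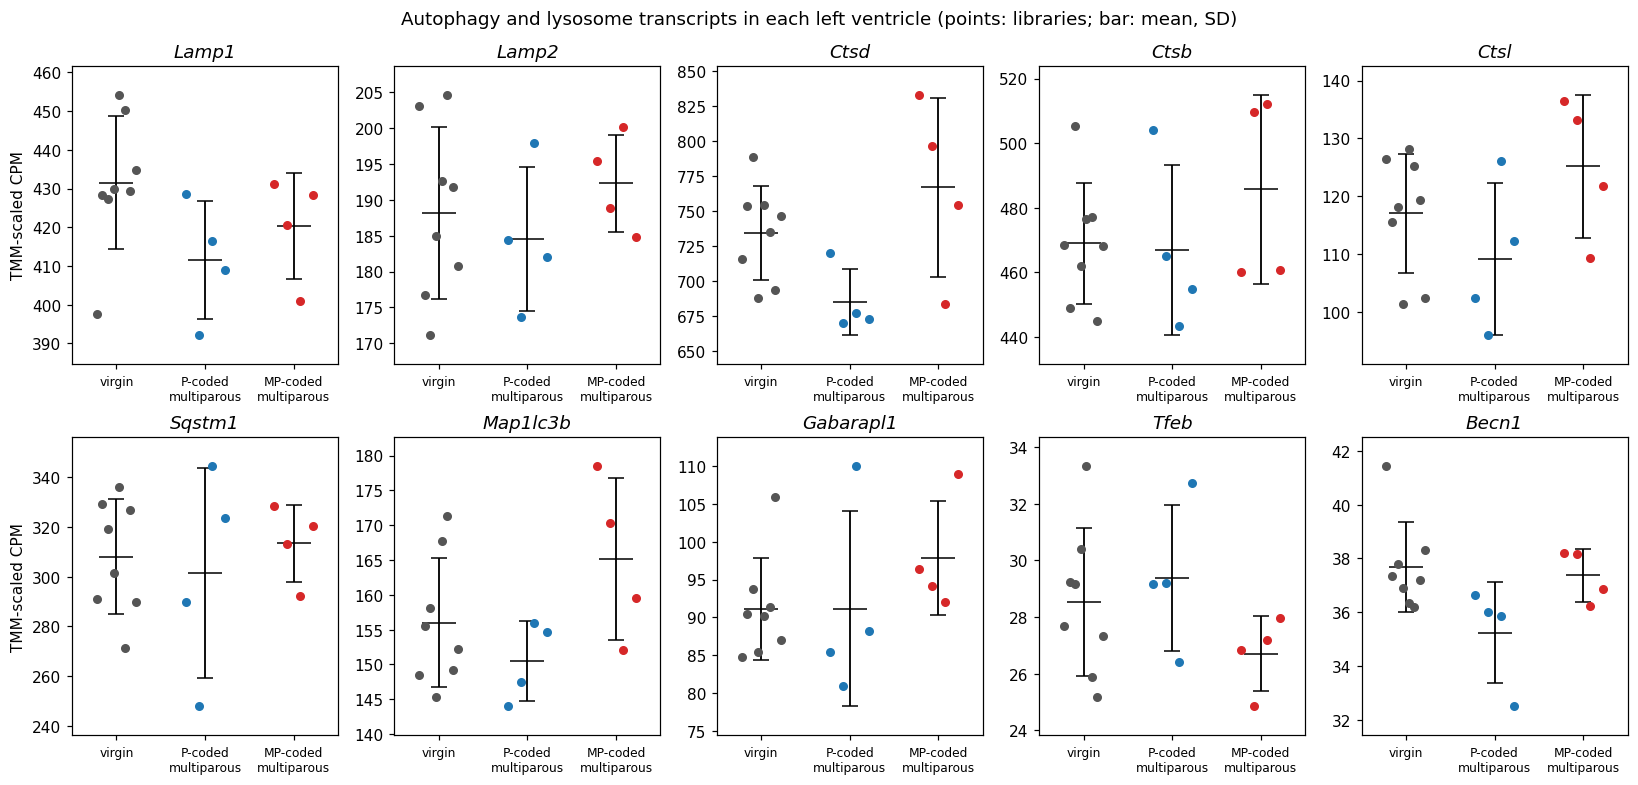
TMM-scaled CPM of the 10 genes in each library, with virgin, P-coded multiparous and MP-coded multiparous hearts side by side, bars for the mean and SD, and a separate vertical axis for each gene that does not start at 0. The groups overlap in every panel, and the MP-coded libraries reach the highest Ctsd, Ctsl and Map1lc3b values.

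Among the membrane proteins, Lamp1 (ENSMUSG00000031447.7, chromosome 8, 13159161 to 13175338, plus strand, GRCm38) encodes a heavily glycosylated protein that lines the lysosome. Multiparous libraries ran from 392 CPM through a median of 419 to 431 CPM, and virgin libraries from 398 through 430 to 454 CPM. None of the 8 multiparous libraries reached the virgin mean of 431 CPM, yet all but 1 lay above the lowest virgin library, virgin 1. The means were 416 ± 14.2 and 431 ± 17.2 CPM (SD, n = 8 each), a log2 fold change of -0.05 (SE 0.03, 95% interval -0.12 to 0.02, edgeR adjusted p = 0.756).
Lamp2 (ENSMUSG00000016534.15, chromosome X, 38401357 to 38456454, minus strand) encodes the partner glycoprotein, one form of which takes part in chaperone-mediated autophagy. It ran from 174 through 187 to 200 CPM in multiparous and from 171 through 188 to 205 CPM in virgin hearts, so that the multiparous range lay inside the virgin one. The log2 fold change was 0.0018 (95% interval -0.09 to 0.09, edgeR adjusted p = 0.997), and the gene's splice forms were not separated in these counts.

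Of the cathepsins, Ctsd (ENSMUSG00000007891.16, chromosome 7, 142375911 to 142388038, minus strand) ran from 670 through 702 to 833 CPM in multiparous and from 688 through 741 to 788 CPM in virgin hearts. The multiparous hearts spread to both sides: 4 lay below every virgin library and 2 above every virgin library. The log2 fold change was -0.02 (95% interval -0.12 to 0.09, edgeR adjusted p = 0.966).
Ctsb (ENSMUSG00000021939.8, chromosome 14, 63122462 to 63145923, plus strand), a cysteine protease, ran from 443 through 463 to 512 CPM against 445 through 468 to 505 CPM. Its groups nearly coincided, with a log2 fold change of 0.02 (95% interval -0.06 to 0.11, edgeR adjusted p = 0.934).
Ctsl (ENSMUSG00000021477.9, chromosome 13, 64359337 to 64370890, minus strand), a second cysteine protease, ran from 96.0 through 117 to 136 CPM in multiparous and from 101 through 119 to 128 CPM in virgin hearts. Both means were 117 CPM, and the log2 fold change was 0.0017 (95% interval -0.15 to 0.15, edgeR adjusted p = 0.999). Multiparous hearts held both the lowest and the highest Ctsl value of the study, as they did for Ctsd, Ctsb, Sqstm1, Map1lc3b and Gabarapl1.

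Sqstm1 (ENSMUSG00000015837.15, chromosome 11, 50199366 to 50210827, minus strand) ran from 248 through 317 to 345 CPM in multiparous and from 271 through 310 to 336 CPM in virgin hearts. The lowest value, in multiparous 2, and the highest, in multiparous 5, both came from P-coded hearts. The log2 fold change was -0.0030 (95% interval -0.13 to 0.13, edgeR adjusted p = 0.996).
Map1lc3b (ENSMUSG00000031812.16, chromosome 8, 121590361 to 121598760, plus strand) ran from 144 through 155 to 178 CPM against 145 through 154 to 171 CPM, with 3 of 8 multiparous hearts above the virgin mean. Its log2 fold change was 0.02 (95% interval -0.08 to 0.12, edgeR adjusted p = 0.966).
Gabarapl1 (ENSMUSG00000030161.8, chromosome 6, 129533160 to 129542346, plus strand) ran from 80.9 through 93.1 to 110 CPM against 84.8 through 90.3 to 106 CPM. It had the widest upward room of the 10, with a log2 fold change of 0.05 and an interval from -0.08 to 0.18 (edgeR adjusted p = 0.883).

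Tfeb (ENSMUSG00000023990.18, chromosome 17, 47737030 to 47792419, plus strand) ran from 24.8 through 27.6 to 32.7 CPM in multiparous and from 25.2 through 28.4 to 33.3 CPM in virgin hearts. The difference was a log2 fold change of -0.02 (95% interval -0.15 to 0.10, edgeR adjusted p = 0.962). TFEB is controlled largely by where it sits in the cell, which transcript counts do not show.
Becn1 (ENSMUSG00000035086.13, chromosome 11, 101285952 to 101302286, minus strand) ran from 32.5 through 36.4 to 38.2 CPM in multiparous and from 36.2 through 37.3 to 41.4 CPM in virgin hearts. In 6 of 8 multiparous hearts it lay below the virgin mean, and 3 lay below every virgin library. The log2 fold change was -0.05 (95% interval -0.13 to 0.02, edgeR adjusted p = 0.777).

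Some of these counts share exonic bases with other genes, and the strand setting of the counting is not given in the sources used here. Becn1 lies opposite Cntd1 over 3104 of its 7065 exonic bases, although Cntd1 averaged only 13.3 counts per library. Ctsb shares 774 of 6051 bases with the opposite-strand gene Fdft1, which averaged 2062 counts. Map1lc3b shares 58 of 7517 bases with Zcchc14, which averaged 3431 counts. Gabarapl1 shares 570 of 2013 bases with the opposite-strand gene 1700101I11Rik, which averaged 61.4 counts. Sqstm1 shares 580 of 3356 with Mrnip (82.1 counts) and Lamp1 249 of 2675 with Grtp1 (101 counts), both on the opposite strand. Ctsl shares 1742 of 6489 bases with the antisense model Gm47123, which held 0 counts. Ctsd shares 808 of 2351 bases with the same-strand model Gm49369, which held 0 counts. With the log2 sum of the kidney markers as a covariate, no gene of the 10 passed and the log2 fold changes ran from -0.15 to 0.08. The largest shift was that of Tfeb, to -0.15 (edgeR adjusted p = 0.888). Sqstm1 became -0.07, Ctsb 0.08 and Ctsl 0.08, while Ctsd and Becn1 changed sign, to 0.05 and 0.02. The intervals given above are those of the fit without this covariate. The part of the fibroblast markers in these values was not tested.

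Within the multiparous hearts, 9 of the 10 genes were higher in the MP-coded than in the P-coded libraries, all but Tfeb. Among all tested genes 50.6% were higher. None of the 10 passed the test (edgeR adjusted p from 0.405 upwards), against 22 of 18123 tested genes (0.121%). At an unadjusted p under 0.05 there were 2, Ctsd and Map1lc3b, as with limma voom, and 3 with DESeq2. That share stood against 11% of all tested genes. The median log2 fold change was 0.08 for the 10 genes and 0.0019 for all genes. No gene of the 10 had groups that did not overlap, as 5.88% of tested genes did.

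Ctsd measured 833, 796, 684 and 755 CPM in MP-coded multiparous 3, 4, 6 and 8, and 720, 670, 677 and 673 CPM in P-coded multiparous 1, 2, 5 and 7. Of the MP-coded hearts, 3 lay above every P-coded heart, while multiparous 6 lay among them. The means were 767 ± 64.1 and 685 ± 23.6 CPM (SD, n = 4 each), a log2 fold change of 0.17 (SE 0.07, 95% interval 0.02 to 0.32, edgeR adjusted p = 0.405).
Ctsl measured 136, 133, 109 and 122 CPM in the MP-coded hearts and 102, 96.0, 126 and 112 CPM in the P-coded hearts. Multiparous 6 was again the low MP-coded heart, and multiparous 5 was the high P-coded one. The means were 125 ± 12.3 and 109 ± 13.1 CPM, a log2 fold change of 0.20 (SE 0.09, 95% interval -0.0056 to 0.41, edgeR adjusted p = 0.467).
Map1lc3b measured 178, 170, 152 and 160 CPM in the MP-coded hearts and 144, 148, 156 and 155 CPM in the P-coded hearts. The same 3 MP-coded hearts, multiparous 3, 4 and 8, lay above all P-coded hearts. The means were 165 ± 11.6 and 151 ± 5.73 CPM, a log2 fold change of 0.14 (SE 0.06, 95% interval 0.0015 to 0.27, edgeR adjusted p = 0.448).

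Tfeb ran the other way, with 26.8, 24.8, 27.2 and 27.96 CPM in the MP-coded and 29.2, 29.2, 26.4 and 32.7 CPM in the P-coded hearts. The MP-coded values all lay below the P-coded mean, and only multiparous 5 kept the groups overlapping at the low end. The log2 fold change was -0.13 (SE 0.07, 95% interval -0.29 to 0.02, edgeR adjusted p = 0.527).
Becn1 measured 38.2, 38.2, 36.3 and 36.9 CPM against 36.6, 36.0, 35.8 and 32.5 CPM, a log2 fold change of 0.09 (edgeR adjusted p = 0.589). Gabarapl1 measured 96.4, 94.2, 92.0 and 109 CPM against 85.4, 80.9, 110 and 88.2 CPM, a log2 fold change of 0.11 (edgeR adjusted p = 0.742). In both genes 3 P-coded hearts lay below every MP-coded heart. Lamp1, Lamp2, Ctsb and Sqstm1 had log2 fold changes from 0.03 to 0.06, and their edgeR adjusted p ran from 0.742 to 0.868. Macrophage markers summed to 427 to 647 CPM in the MP-coded and 356 to 463 CPM in the P-coded hearts, with 13 of 15 genes higher (exact two-sided permutation p = 0.143, adjusted 0.457, where 4 against 4 cannot go below 0.0286). Kidney tubule markers summed to 16.5 to 35.6 CPM and 10.4 to 17.2 CPM (exact two-sided permutation p = 0.0571, adjusted 0.457). The part of either in these values was not tested.

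**Figure D2:**
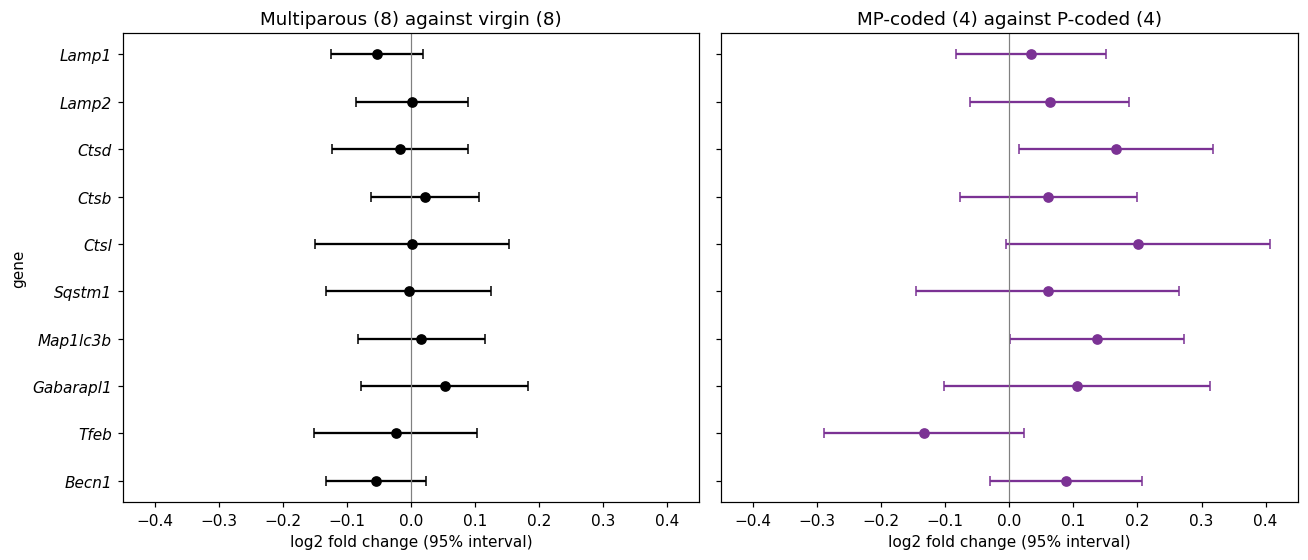
Log2 fold changes of the 10 genes with 95% intervals from edgeR, for multiparous against virgin hearts and for the codes. The multiparous against virgin intervals all cross 0 and stay within 0.25 of it, while those of Ctsd and Map1lc3b for MP-coded against P-coded hearts lie just above 0 without passing the adjusted test.

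Set against the same virgin libraries, the 2 codes took different sides for several genes, and since they share those controls the values are given side by side only. In P-coded hearts 1 gene was higher and 9 lower than in virgin hearts, against 47.3% higher among all tested genes. None was called, against 0.878% of 18905 tested genes, and Becn1 alone had an unadjusted p under 0.05 (log2 fold change -0.10, 95% interval -0.19 to -0.0088, edgeR adjusted p = 0.511). DESeq2 also gave 1 such gene, and among all tested genes 8.6% had one. In MP-coded hearts 7 were higher and 3 lower, against 48.8% higher among all tested genes. None was called there either, against 0.00529% of tested genes, and none had an unadjusted p under 0.05 with edgeR or DESeq2, where edgeR gave 9.46% of all tested genes one.
Ctsd had log2 fold changes of -0.10 in P-coded and 0.07 in MP-coded hearts against virgin ones. Those of Ctsl were -0.10 and 0.10, those of Map1lc3b -0.05 and 0.08, and those of Tfeb 0.04 and -0.09. Virgin hearts thus lay between the codes for these 4 genes, which differed most between the codes. This follows from those differences and from multiparous against virgin values near 0, and is no separate result.

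The genes did not vary as 1 block across the 16 hearts. Of 45 pairs, 29 had a positive and 16 a negative Pearson's r of log2 CPM, with a median of 0.15. The closest pair joined a cathepsin to an ATG8 protein: Ctsl and Map1lc3b had r = 0.78 (permutation p = 0.00046, adjusted over 45 pairs 0.0207) and Spearman's rho = 0.75 (permutation p = 0.00116, adjusted 0.0522). Their r was 0.91 within multiparous and 0.58 within virgin hearts, and 0.75 without multiparous 2 and virgin 4, the libraries farthest from the median of Ctsl. Without the deepest library, virgin 8, it was 0.79. Ctsd and Map1lc3b had r = 0.72 (permutation p = 0.00178, adjusted 0.0400) and rho = 0.67 (permutation p = 0.00549, adjusted 0.118). This relation rests in part on multiparous 3 and 4, since r fell to 0.50 without them. The third pair, Sqstm1 and Gabarapl1, had r = 0.65 (permutation p adjusted 0.106) and rho = 0.61. The 2 ATG8 members, Map1lc3b and Gabarapl1, had r = 0.32 with each other. The lowest r was -0.46, for Tfeb and Gabarapl1 (permutation p = 0.0724, adjusted 0.296; rho = -0.57, permutation p = 0.0238, adjusted 0.118). Ctsb had no r above 0.28. The permutations ran over all 16 libraries without regard to group or code. Ctsl, Ctsd and Map1lc3b also had the largest positive differences between the codes, which enter r over all libraries, r within multiparous hearts and the p-values. The part of the codes in these correlations was not tested. Both codes hold 4 libraries, too few for a correlation within each.

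**Figure D3:**
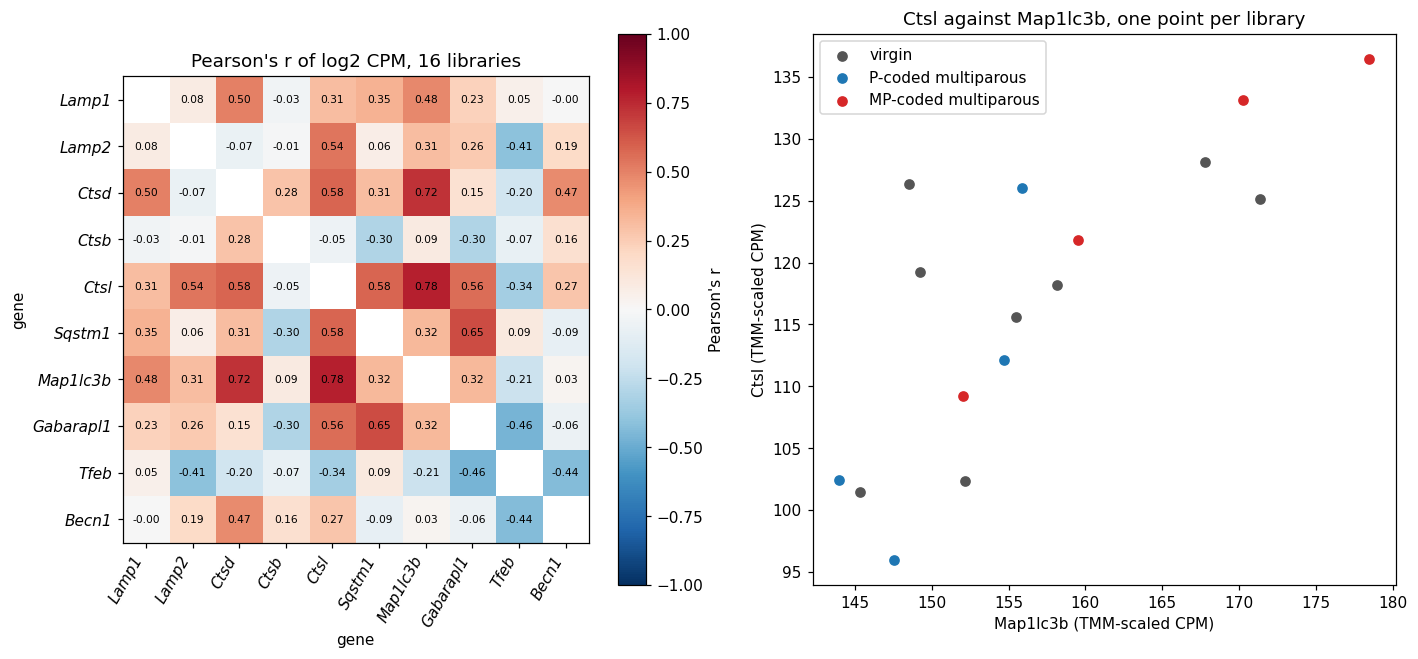
Left, Pearson's r of log2 CPM for each of the 45 gene pairs over 16 libraries. Right, CPM of Ctsl against CPM of Map1lc3b, 1 point per library coloured by group, where virgin, P-coded and MP-coded hearts lie along a common rising band (r = 0.78).

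For each gene, the 3 most similar of 12465 genes with a mean of at least 1 CPM were found by Pearson's r of log2 CPM over 16 libraries, which share depth and scaling, and are given as a description. Those of Lamp1 included Clybl (r = 0.84) and Btc (r = 0.83). Lamp2 lay closest to Mcl1 (r = 0.88), an anti-apoptotic relative of BCL2, then Atp10d and Eya2. Ctsd followed Ufm1 (r = 0.92), a ubiquitin-like modifier, then Timm10 and Rnf6. Ctsb followed Endou (r = 0.78), Tcn2 and C3ar1, a complement receptor of myeloid cells. Ctsl followed Art3 (r = 0.85), Fkbp5, a chaperone induced by glucocorticoids, and Bclaf1.
Sqstm1 followed Kcnc1 (r = 0.87), Smarca2 and Ptrhd1. Map1lc3b followed Tmem116 (r = 0.91), then Pnpla2 (r = 0.89), the triglyceride lipase ATGL. Gabarapl1 followed Slc25a32 (r = 0.91), Ppfibp1 and Faxc. Tfeb followed Tmem214 (r = 0.90), Hmgxb3 and Lrrc41. Becn1 followed Arpc3 (r = 0.88), Trmu and Zfyve28. No gene of the 10 was among the 3 most similar to another.

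The wider route was read from 13 lists holding 191 genes, the 10 included, of which 190 were tested. Between multiparous and virgin hearts none passed (edgeR), 101 were higher and 89 lower, and 13 of 190 had an unadjusted p under 0.05. Among all tested genes 48.6% were higher and 8.12% had such a p, so the lists did not exceed the background in that count. The median log2 fold change was 0.0018, against -0.0030 for all genes. Lysosomal proteases had 11 of 14 members higher with a median of 0.03, and other lysosomal hydrolases and activators 26 of 33 higher with a median of 0.03. The vacuolar ATPase, the proton pump that acidifies the lysosome, had 13 of 17 subunits lower with a median of -0.03.
Values of the genes closest to the threshold are given without a call. Sort1, which encodes the sorting receptor sortilin, averaged 55.1 ± 9.75 CPM after pregnancies and 67.7 ± 8.45 CPM without (a log2 difference of -0.30, SE 0.10, edgeR adjusted p = 0.388). Lamtor3, a subunit of the lysosomal Ragulator scaffold for mTORC1, measured 43.4 and 46.6 CPM (log2 fold change -0.10, edgeR adjusted p = 0.404). Cst3, the cathepsin inhibitor cystatin C, measured 245 and 226 CPM (log2 fold change 0.11, edgeR adjusted p = 0.444), and Ctsk, the collagen-degrading cathepsin K, 3.89 and 3.15 CPM (log2 fold change 0.30, edgeR adjusted p = 0.585). The fibroblast markers given above were higher in multiparous hearts, and their part in these values was not tested. With the kidney covariate the log2 fold change of Ctsk became 0.12, that of Cst3 0.039, that of Lamtor3 -0.061 and that of Sort1 -0.44, and none passed.

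Between the codes, 139 of the 190 listed genes were higher in MP-coded hearts and 51 lower, against 50.6% higher among all tested genes, and again none passed (edgeR). An unadjusted p under 0.05 was reached by 20 of 190, a share close to the 11% of all tested genes, and 19 of these were higher. The median log2 fold change was 0.04. Lysosomal proteases were higher in 13 of 14 with a median of 0.10, other hydrolases and activators in 29 of 33 with a median of 0.08, the ATG8 family in 5 of 5 with a median of 0.09, and lysosomal membrane genes in 18 of 22.
Atg13, a scaffold of the ULK1 kinase complex that starts autophagy, measured 98.3, 76.98, 76.8 and 90.1 CPM in the MP-coded and 63.7, 62.6, 69.9 and 66.9 CPM in the P-coded hearts. These groups did not overlap, as for 5.88% of tested genes. The fitted log2 fold change of Atg13 was 0.38 (SE 0.08, 95% interval 0.20 to 0.57, edgeR adjusted p = 0.1204). Bnip3, a receptor for the autophagy of mitochondria, measured 271, 197, 158 and 209 CPM against 143, 148, 157 and 134 CPM, with a gap of under 1 CPM between the groups. Its log2 fold change was 0.52 (SE 0.13, edgeR adjusted p = 0.176). DESeq2 called both, with adjusted p of 0.00442 for Atg13 and 0.00856 for Bnip3, among 295 genes called in all. The edgeR test without the filter on low counts also called both, with adjusted p of 0.0197 and 0.0230, among 389 genes. No other fit of the 14 alternatives called either gene. Limma voom, 3 code groups, library totals and every left-out library were among those. In virgin hearts Atg13 averaged 78.2 ± 12.8 CPM and Bnip3 193 ± 50.2 CPM.
Lipa, the lysosomal acid lipase, measured 43.9 and 36.5 CPM (log2 fold change 0.27, edgeR adjusted p = 0.195). Ctsz, cathepsin Z, measured 22.3 and 18.6 CPM (log2 fold change 0.27, edgeR adjusted p = 0.294). Lysosomal enzymes are abundant in macrophages, whose summed markers were higher in the same MP-coded hearts by 0.31 on the log2 scale, and the part of macrophages in these values was not tested.
Listed genes were also set out by promoter letters, with no test. Between multiparous and virgin hearts, the 36 other listed genes with CACGTG had a median log2 fold change of 0.0063 and the 110 without it 0.0046. Over all tested genes with a window, the medians were -0.0068 with the core and -0.0031 without it. Between the codes the medians of the listed genes were 0.045 and 0.034, and those of all tested genes 0.017 and 0.011.

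**Figure D4:**
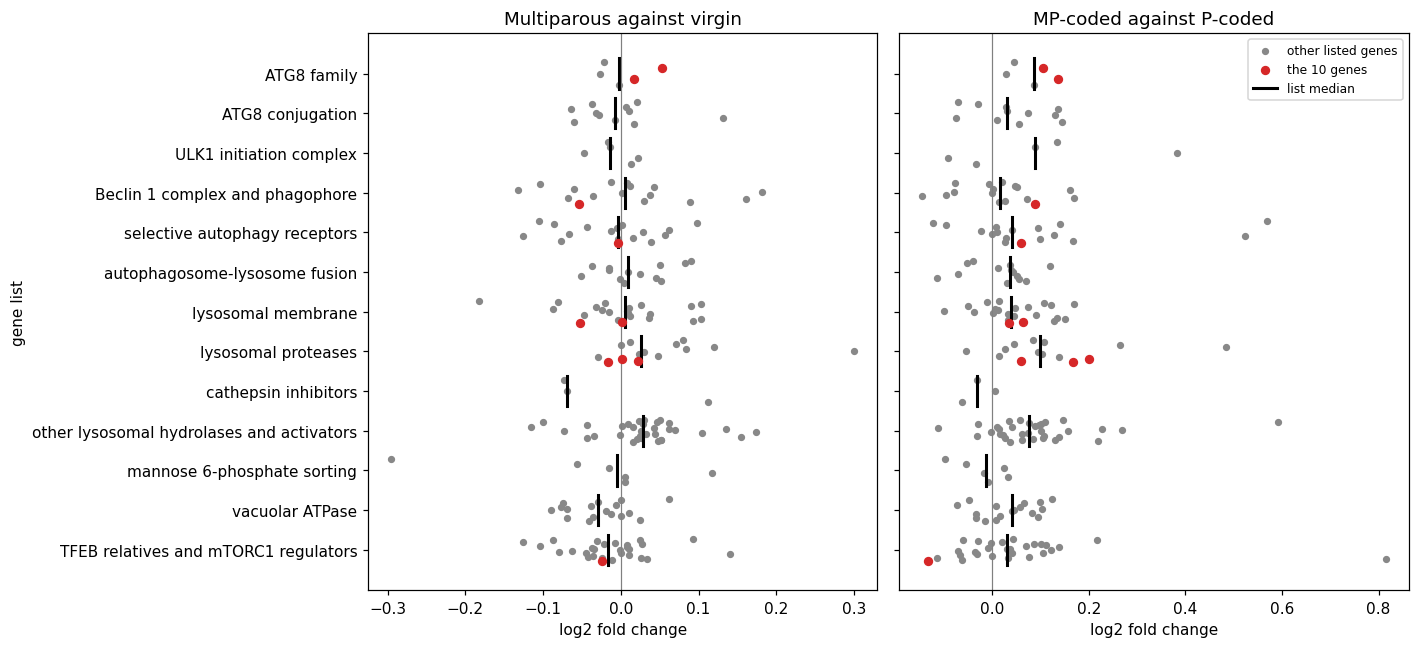
Log2 fold changes of the listed autophagy and lysosome genes by list, for multiparous against virgin hearts (left) and MP-coded against P-coded hearts (right), with the 10 genes in red and each list's median as a bar. Medians run from -0.07 (cathepsin inhibitors) to 0.03 on the left, and 11 of 13 lie above 0 on the right. In the right panel no gene passed the adjusted test of the main edgeR fit. DESeq2 and edgeR without the filter on low counts called Atg13 and Bnip3, and the other alternatives did not.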

How the data were processed

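The authors deposited raw counts per gene for each of the 16 libraries, 1 table of 55487 genes each. Trim Galore 0.6.10, STAR 2.7.11b and HTSeq 0.11.1 on GRCm38.p6 are named in the submitters' processing notes. For the annotation release and the strand setting, nothing is given in the sources used here. Reads assigned to no gene, 26.5% to 33.1% per library, stayed out of library sizes.

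Counts were fitted over all genes with edgeR 4.0.16 in R 4.3.3 (TMM, filterByExpr, quasi-likelihood test on group alone, its default method) with Benjamini-Hochberg adjustment at 0.05, and the scripts were tested on simulated data. MP-coded against P-coded hearts used those 8 libraries, and each code against virgin hearts used 3 groups. Correlations used log2 CPM with a prior count of 2 and 100000 permutations. Coordinates and lengths are from GENCODE M21 (GRCm38), which held 99.5% of gene identifiers. Alternatives used DESeq2 1.42.0, limma voom (limma 3.58.1), other scalings and filters, a kidney covariate, a replicate block and left-out libraries.

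The 10 genes, the lists and the marker lists were chosen with earlier results of these data known. Named genes were the 10, the 3 most similar genes of each, and from each list the genes that passed, at most 4, or otherwise the 2 with the smallest p, from which the text gives a selection. Some of these genes are not reported here. The labels do not tie each library to an animal beyond stating 8 mice per group, so p-values measure the spread between libraries.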

Additional observations from a re-analysis of the deposited data

Results flagged for a closer look

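Dixon's test was applied to the highest and lowest library of each group for each of the 10 genes, and 4 of 40 sets stood out, where chance flags about 1 in 20. Ctsd was highest in the P-coded library multiparous 1 at 720 CPM, with the next P-coded library at 677 CPM. Gabarapl1 was highest among virgin hearts in virgin 7 at 106 CPM, with the next at 93.8 CPM. Becn1 was lowest among multiparous hearts in multiparous 7 at 32.5 CPM, with the next at 35.8 CPM. Becn1 was also highest among virgin hearts in virgin 1 at 41.4 CPM, with the next at 38.3 CPM.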

How the results depend on the processing

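None of the 10 genes was called in any of 27 fits of multiparous against virgin hearts, 15 of MP-coded against P-coded hearts, or 8 of each code against virgin hearts. The smallest adjusted p over these fits was 0.396 (Lamp1, without virgin 1), 0.218 (Ctsl, without multiparous 5), 0.440 (Becn1, P-coded, DESeq2) and 0.349 (Map1lc3b, MP-coded, library totals). Their log2 fold changes stayed between -0.15 and 0.09 for multiparous against virgin hearts and between -0.18 and 0.28 for the codes.

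Counts of called genes over the whole table moved far more. For multiparous against virgin hearts the 2 genes became 0 with library totals, 56 with no filter, 128 with DESeq2 and 0 with the kidney covariate. Leaving out 1 library gave 0 to 55, and the higher counts came without multiparous 3 (24) or virgin 1 (23), 5 (33) or 7 (55). For the codes the 22 became 2 with 3 code groups, 7 with library totals, 389 with no filter, 295 with DESeq2 and 13 with limma voom, and leaving out 1 library gave 3 to 197 (without multiparous 1 or 7, and without multiparous 5). For P-coded hearts against virgin ones the 166 became 97 with those libraries alone and 279 with DESeq2, and 0 to 201 with 1 library left out, 0 without multiparous 2 or 7. For MP-coded hearts the 1 became 0 with those libraries alone, 122 with DESeq2, 4 with library totals, and 0 to 0 with each library left out. Deviations of same-numbered libraries correlated between -0.11 and 0.29, and 1 of 8 correlated best with its own number. These correlations cannot decide whether the numbers mark pairs or shared handling. With the replicate block 106 genes were called, none of them among the 10.

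Several log2 fold changes near 0 changed sign, and the cause was not tested. TMM moved the difference between groups by 0.034 against library totals. With library totals, multiparous against virgin hearts, Ctsd became 0.016, Sqstm1 0.031, Tfeb 0.012, Gabarap 0.0073 and Gabarapl2 0.013. In P-coded hearts Lamp2 became 0.0015, Ctsb 0.025 and Gabarapl1 0.031, and in MP-coded hearts Lamp1 5.1e-05 and Becn1 0.022. Ctsl became -0.0062 with limma voom and -0.0044 with the replicate block. With the kidney covariate Ctsd became 0.054, Becn1 0.022, Ulk2 -0.073, Wdfy3 -0.051 and Cstb 0.17. Leaving out 1 library, multiparous against virgin hearts, gave ranges of -0.017 to 0.021 for Lamp2, -0.033 to 0.039 for Ctsl, -0.028 to 0.037 for Sqstm1, -0.011 to 0.038 for Map1lc3b, -0.059 to 0.011 for Tfeb, -0.0090 to 0.037 for Ulk2 and -0.11 to 0.023 for Atg13. For the codes it gave -0.024 to 0.13 for Sqstm1, -0.21 to 0.049 for Sort1 and -0.16 to 0.099 for Cst6. In P-coded against virgin hearts it gave -0.046 to 0.013 for Ctsb, -0.11 to 0.052 for Gabarapl1, -0.11 to 0.049 for Sqstm1 and -0.015 to 0.086 for Tfeb, and in MP-coded ones -0.023 to 0.0039 for Becn1. The planned legacy dispersion method is the version's default and so equals the reported fit, and the newer method was added after seeing the data. Depth does not limit these genes, the lowest of which averaged 28.3 CPM.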

Other observations

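Fkbp5, a chaperone of the glucocorticoid receptor and a classical target of it, was named as similar to Ctsl and was looked at further after its values were seen. It measured 27.0, 26.4, 24.6 and 27.6 CPM in MP-coded and 13.2, 10.9, 17.9 and 14.99 CPM in P-coded hearts, which did not overlap. It was higher in MP-coded hearts with a log2 fold change of 0.89 (SE 0.12, edgeR adjusted p = 0.0366), while virgin hearts spread from 11.96 to 29.1 CPM. The log2 fold change of Fkbp5 stayed between 0.78 and 1.02 over 14 alternatives, but it did not pass with 3 code groups (edgeR adjusted p = 0.182), with library totals (0.0506) or without multiparous 1, 3, 4, 7 or 8 (0.0638 to 0.147).

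Correlations with Fkbp5 are given as a description, with no test, because Fkbp5 was named for its likeness to Ctsl and Bnip3 and Atg13 were taken for their difference by code. Across the 16 libraries, Pearson's r of Fkbp5 was 0.83 with Bnip3 (rho = 0.84) and 0.81 with Atg13 (rho = 0.81), the 2 listed genes with the smallest p between the codes. Within the 8 virgin libraries, which carry 1 code, r was 0.95 with Bnip3 and 0.73 with Atg13. Without multiparous 2 and virgin 5, the libraries farthest from the median of Fkbp5, r was 0.81 and 0.75.

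Of the 10 genes, Ctsl had r = 0.83 with Fkbp5 overall and 0.89 within virgin hearts. Map1lc3b, itself the closest of the 10 to Ctsl, had r = 0.72 (rho = 0.71) and r = 0.66 within virgin hearts. Lamp2 had r = 0.60 and Ctsd r = 0.56, and the other 6 had r from -0.24 to 0.37. Virgin hearts with high Fkbp5 also held high Bnip3: virgin 1, 5 and 6 measured 26.8, 29.1 and 24.4 CPM of Fkbp5 and 238, 260 and 259 CPM of Bnip3. The other 5 virgin hearts ran up to 18.8 CPM and 174 CPM.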
